A study of Mus musculus with 6 samples.

Results

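The ATP-binding cassette (ABC) transporter genes code for ATP-driven pumps and related proteins, and their transcripts were counted by RNA sequencing of 10T1/2 cells, a mouse fibroblast line of mesenchymal character. Members were the rows whose symbol begins with Abc, then a subfamily letter from a to g, then a number with or without a final letter. There were 50 such rows among 57180, and 44 of the 50 were detected in some library, while 32 passed the low-count filter. The comparison was between 3 libraries of cells given photodynamic therapy (PDT) and 3 libraries of cells given PBS. PDT was Ce6@D4-EV, MDK-targeted extracellular vesicles carrying the light-activated dye chlorin e6, and then irradiation with light. All 6 cultures had been stimulated with TGF-β at 5 ng per mL, to make them like cancer-associated fibroblasts (CAF-like), so no library shows the cells without TGF-β. Vesicles, dye and light came as 1 treatment, so their parts cannot be told apart, and the time between treatment and RNA extraction is not stated in the labels. The study asked how the transcriptome of these activated cells differs after PDT.

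ABC proteins bind and hydrolyse ATP, and most of them use it to move a substrate across a membrane. Subfamily A moves lipids, B and C move drugs, peptides, heme-related compounds and glutathione conjugates, D serves peroxisomes and lysosomes, and G moves sterols and drugs. Subfamilies E and F have the ATP-binding domains but no membrane-spanning part, and they act on ribosomes. In photodynamic therapy the family is known above all for ABCG2, which pumps porphyrins and chlorin-type dyes out of cells, and for ABCB6, a porphyrin transporter.

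The PDT libraries held 88669946 to 99527847 counts and the PBS libraries 83195529 to 86558216. ABC genes took 0.158% to 0.165% of the counts in PDT and 0.146% to 0.15% in PBS. On the first principal component, with 43.8% of the variance, PDT libraries scored -39.9, -38.9 and -23.7 for replicates 1, 2 and 3, against 32.9 to 35.9 for PBS libraries, so PDT replicate 3 lay nearest to PBS. The sum of 10 fibroblast markers was 12800 to 13500 CPM in PDT and 21300 to 22100 CPM in PBS. Most of this difference was in Col1a1 (2428 CPM in PDT, 6025 CPM in PBS) and Col1a2 (3954 CPM in PDT, 7463 CPM in PBS). Col3a1 was 2.06-fold lower in PDT, and Vim, Pdgfra and Pdgfrb were 1.21-, 1.24- and 1.19-fold lower. S100a4 was at 955 CPM in PDT and 883 CPM in PBS, and Dcn was 2.17-fold higher in PDT. Thy1, Dcn and Lum, which mark many fibroblasts, were at or under 1.31 CPM on average in either group. Of 7 leukocyte markers 4, Ptprc among them, had no count in any library, and the list summed to 1.94 to 2.42 CPM in PDT and 1.34 to 1.44 CPM in PBS. Endothelial markers summed to 0.269 to 0.417 CPM in PDT and 0.527 to 1.08 CPM in PBS, and epithelial ones to 0.566 to 0.579 CPM in PDT and 0.699 to 1.31 CPM in PBS. The 3 adipocyte markers, mostly Fabp4, summed to 16.6 to 17 CPM in PDT and 11.6 to 14.4 CPM in PBS. The part of these differences in the ABC results was not tested. In bulk samples, fewer cells of a type and less RNA per cell cannot be told apart. The design names biological replicates without saying how cultures were kept apart, and the tests see only the spread over these 6 libraries, which may be partly technical.

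Of the 32 tested ABC genes, 7 were higher and 7 lower in PDT, and 18 did not pass the test. The 14 called genes are 43.8% of the tested members, and 36.1% of all 17635 tested genes were called (18.7% higher and 17.5% lower), so the members' share is near the background. The higher genes were Abca2, Abca3, Abcc1, Abcc4, Abcd2, Abcf1 and Abcf2, and the lower ones included Abca5, Abca7, Abcb9, Abcd3, Abce1 and Abcg2. The median log2 fold change, PDT against PBS, was 0.05 for the members and 0.01 for all tested genes. For 17 members (53.1%) the libraries of the groups did not overlap in CPM, against 49% of all tested genes. Changes were small, from -1.04 in Abcb9 to 0.81 in Abcd2 on the log2 scale. Each adjusted p given for a gene comes from edgeR (quasi-likelihood test), adjusted over all tested genes by Benjamini-Hochberg, and a gene was called at an adjusted p under 0.05. Levels are normalised read counts (CPM), given as mean ± SD over 3 libraries.

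The 7 higher genes were called under each of 14 other settings of the processing. Among the 7 lower genes, only Abcb9 was called wherever it was tested. With libraries scaled by their size alone, 10 members were higher and 2 lower; of the calls over all genes 63% were then higher, in place of 51.7%. ABC transcripts are long, with a median of 5146 nt for tested members against 2691 nt for 16356 tested genes with a known length. With per-library offsets for transcript length and GC content, 11 members were called higher and 3 lower. A response to treatment that itself tracks length or GC is taken out by such offsets too.

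**Figure D1:**
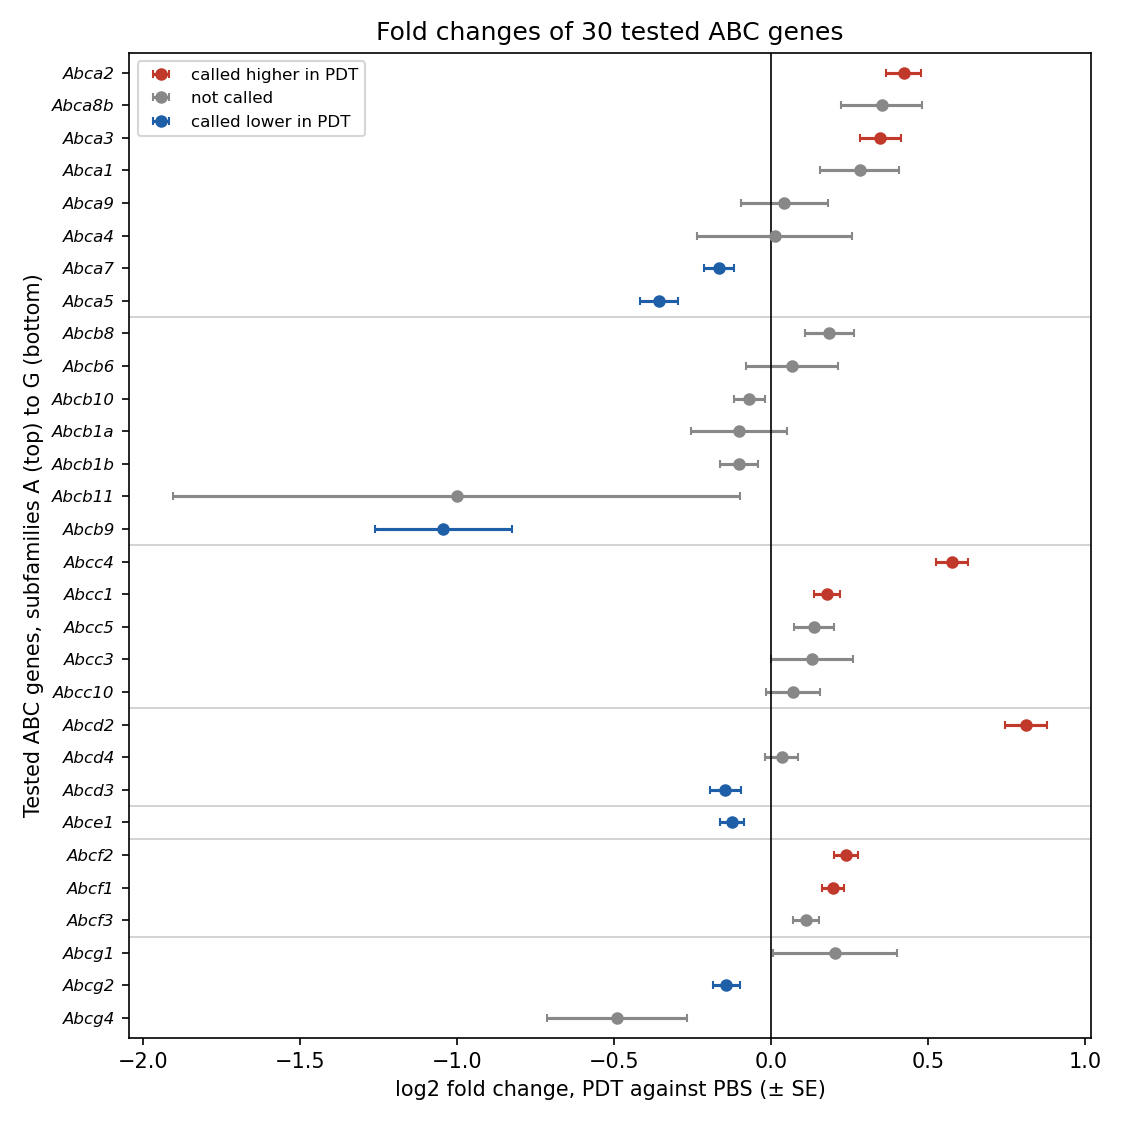
Log2 fold change, PDT against PBS, with its SE (horizontal axis) for 30 tested ABC genes, ordered by subfamily from A at the top to G at the bottom. Abcd2 and Abcc4 lie farthest to the right among called genes, at 0.81 and 0.57, and Abcb9 farthest to the left, at -1.04.

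By subfamily, A had 2 of 8 tested genes higher and 2 lower, with a median log2 fold change of 0.16, and B had 0 higher and 1 lower of 8, with a median of -0.09. Subfamily C had 2 of 5 higher and 0 lower (median 0.14), and F had 2 of 3 higher and 0 lower (0.20). The only E gene was lower, and G had 1 of 3 lower and 0 higher (-0.14). Among all tested genes, 18.7% were higher and 17.5% lower. All 5 tested C genes and all 3 F genes had positive values, whether or not they passed the test. Values were positive for 6 of 8 genes in A, 2 of 8 in B, 2 of 4 in D, 0 of 1 in E and 1 of 3 in G. Of all 17635 tested genes, 9006 had positive values. As a share of all ABC counts, subfamily C took 32.4% to 34.7% in PDT and 30.6% to 32% in PBS, F took 21.3% to 22.4% in PDT and 20.1% to 20.4% in PBS, and G took 3.7% to 4.03% in PDT and 4.36% to 4.74% in PBS. Subfamily B took 9.64% to 9.8% in PDT and 10.4% to 10.8% in PBS, D took 9.42% to 9.84% in PDT and 9.99% to 10.7% in PBS, and E took 12.3% to 13% in PDT and 14.1% to 15.1% in PBS. Of the 7 shares, only that of A overlapped between the groups, at 8.43% to 8.72% in PDT and 8.53% to 8.76% in PBS. Among all tested genes, 49% did not overlap in CPM. The E share is Abce1 alone, and the G share is mostly Abcg2. With length and GC offsets both genes had positive values (0.13 ± 0.06 and 0.20 ± 0.07). Shares within a library depend on one another, and summed CPM gave a different picture for A and D. Subfamily A summed to 132 to 139.8 CPM in PDT and 126.9 to 130.8 CPM in PBS, without overlap. Subfamily D overlapped, at 147.4 to 154.2 CPM in PDT and 151.9 to 159.6 CPM in PBS. These are descriptions, since the difference between subfamilies was not tested.

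Levels per transcript length set the order of expression in the cells. Abcf1 and Abce1 stood at the top with 57.6 and 52.7 CPM per kilobase in PDT and 50.3 and 57.5 in PBS, followed in both groups by Abcc5, Abcf2 and Abcc1. Abcg2 was at 10.4 in PDT and 11.4 in PBS, close to the mitochondrial Abcb10 at 10.4 in PDT and 10.9 in PBS. Abca1, Abcg1, Abcg4 and Abcb9 were at or below 0.478 CPM per kilobase in both groups. Abcf1 ranked first in PDT and Abce1 in PBS, ranks 3 to 13 were held by the same genes in both groups, and Abcd2 was at rank 20 in PDT and 22 in PBS.

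**Figure D2:**
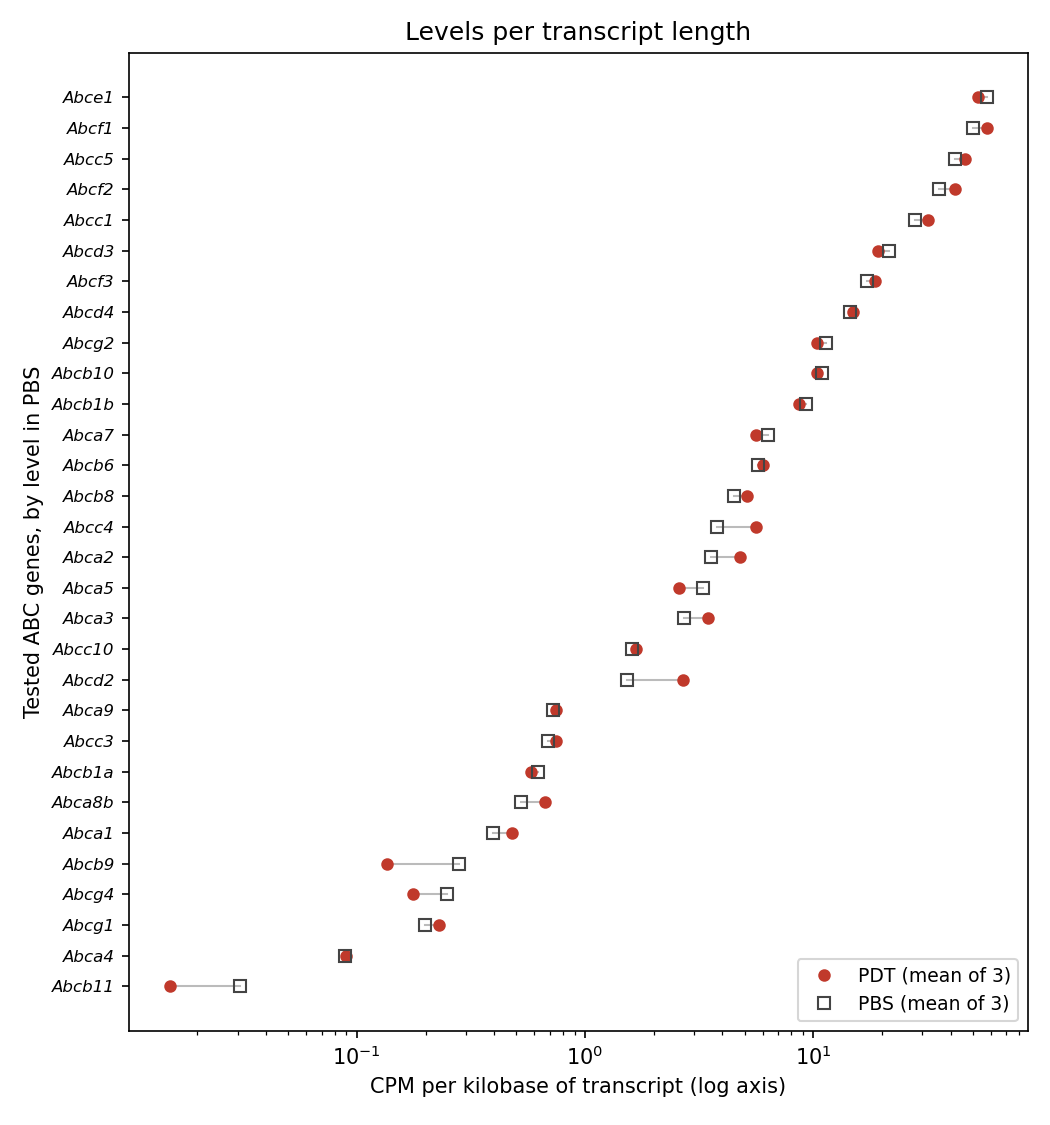
Mean level of 30 tested ABC genes in CPM per kilobase of transcript (horizontal log axis), PDT as filled circles and PBS as open squares, with genes ordered by their PBS level. The lines joining the groups are short beside the range of levels, from 0.0307 CPM per kilobase for Abcb11 to 57.5 for Abce1 in PBS.

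Multidrug resistance proteins of subfamily C export glutathione conjugates, cyclic nucleotides and lipid mediators. Abcc4 (MRP4), an exporter of cyclic nucleotides and prostaglandins, had 31.1, 32.5 and 32.8 CPM in PDT, against 21.2, 21.5 and 22.1 CPM in PBS. Every PDT library lay above every PBS library, by far more than the spread within a group. Its level was 1.49-fold higher in PDT (log2 fold change 0.57 ± 0.05 SE, adjusted p = 2.63e-05), and 0.62 ± 0.05 with offsets. Abcc1 (MRP1), the classical exporter of glutathione conjugates and leukotriene C4, had 221, 212 and 213 CPM in PDT, against 200.5, 185 and 185 CPM in PBS. The groups did not overlap, and the rise was 1.13-fold (0.18 ± 0.04, adjusted p = 0.00892).

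Abcc5 (MRP5), also an exporter of cyclic nucleotides, was the most abundant member by counts, with 256, 249 and 298 CPM in PDT, against 254, 242 and 235 CPM in PBS. Most of the spread was in PDT replicate 3, and the groups overlapped (0.14 ± 0.06, adjusted p = 0.133). It was called with offsets (0.17 ± 0.06, adjusted p = 0.0408). Abcc3 and Abcc10 were at 0.13 ± 0.13 and 0.07 ± 0.09 and did not pass. Abcc10 shares 51 exon bases with Dlk2 on the opposite strand, so the separation of their counts depends on the use of strand, which is not given in the sources used here.

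Abcc4 is the called exporter with the greatest rise and has a RefSeq promoter window on GRCm38.p6. This sequence is shown for the antioxidant response element core, the motif bound by NRF2. The window is chr14:118706170-118706469 on the minus strand, from 250 bases before the start to 50 after it. Capitals mark matches to the core TGACNNNGC, here on the opposite strand, and to the hypoxia response core ACGTG.
Abcc4: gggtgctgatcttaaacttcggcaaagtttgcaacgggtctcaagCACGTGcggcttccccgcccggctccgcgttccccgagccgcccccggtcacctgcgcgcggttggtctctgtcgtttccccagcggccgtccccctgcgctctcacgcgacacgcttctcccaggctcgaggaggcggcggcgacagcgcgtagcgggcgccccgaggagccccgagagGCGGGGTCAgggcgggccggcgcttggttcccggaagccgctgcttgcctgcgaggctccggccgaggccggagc
The second annotated start of Abcc4 also has the core in its window. Over all 32851 promoter windows 12.4% hold this core on either strand, and of 45 windows of 38 matched members 7 (15.6%), from 5 genes, do. Besides Abcc4 these genes are Abcb1a, Abca8b and Abcc10, which were not called, and Abcc2, which did not pass the low-count filter. The hypoxia core is in 19.6% of all windows and 22.2% of the members'. Searches for the AP-1 site TGANTCA and the LXR DR4 element, on both strands, gave 0 matches among the members, against 7.81% and 0.0152% of all windows. A match describes the letters and is not evidence of binding, and a role of NRF2 in the level of Abcc4 was not tested.

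Genes that regulate the drug response and make conjugates for MRP-type pumps were largely higher. Of 17 tested genes in this list 12 were higher and 1 lower, with a median of 0.37. Of all tested genes, 18.7% were higher and 17.5% lower. The glutathione transferase genes Gsta4 and Gstm1 rose by 1.11 ± 0.05 and 0.91 ± 0.05, and Gclc, the catalytic subunit of glutamate-cysteine ligase for glutathione synthesis, by 0.57 ± 0.04 (adjusted p of 9.02e-06 or less). Gclc had 73.0 ± 1.94 CPM in PDT and 49.2 ± 1.62 CPM in PBS (SD, n = 3 each). Nfe2l2, the gene of NRF2, rose by 0.41 ± 0.04 (adjusted p = 4.86e-05). Keap1, in the same list, rose by 0.34 ± 0.04 (adjusted p = 0.000217). Nfe2l2 and Keap1 were named after their values were seen. The 1 lower gene, Cyp1b1, a cytochrome P450, was named after its values were seen and was at -0.34 ± 0.05.

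For the porphyrin transporters Abcg2 and Abcb6 no firm direction could be given. Abcg2 (BCRP), the exporter of porphyrins and chlorin dyes, had 59.9, 60.7 and 57.2 CPM in PDT, against 64.2, 64.0 and 68.1 CPM in PBS. The groups were apart by a few CPM, with PDT lower (-0.14 ± 0.04, 1.105-fold lower, adjusted p = 0.0277). The call did not hold with library size alone (adjusted p = 0.0973), with no low-count filter (0.0783), or when PDT replicate 1 (0.0659) or PBS replicate 3 (0.0998) was left out. With length and GC offsets the value was positive, 0.20 ± 0.07 (adjusted p = 0.0597), so the direction of Abcg2 depends on this setting. Its transcript is 5717 nt long with 39.2% GC.

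**Figure D3:**
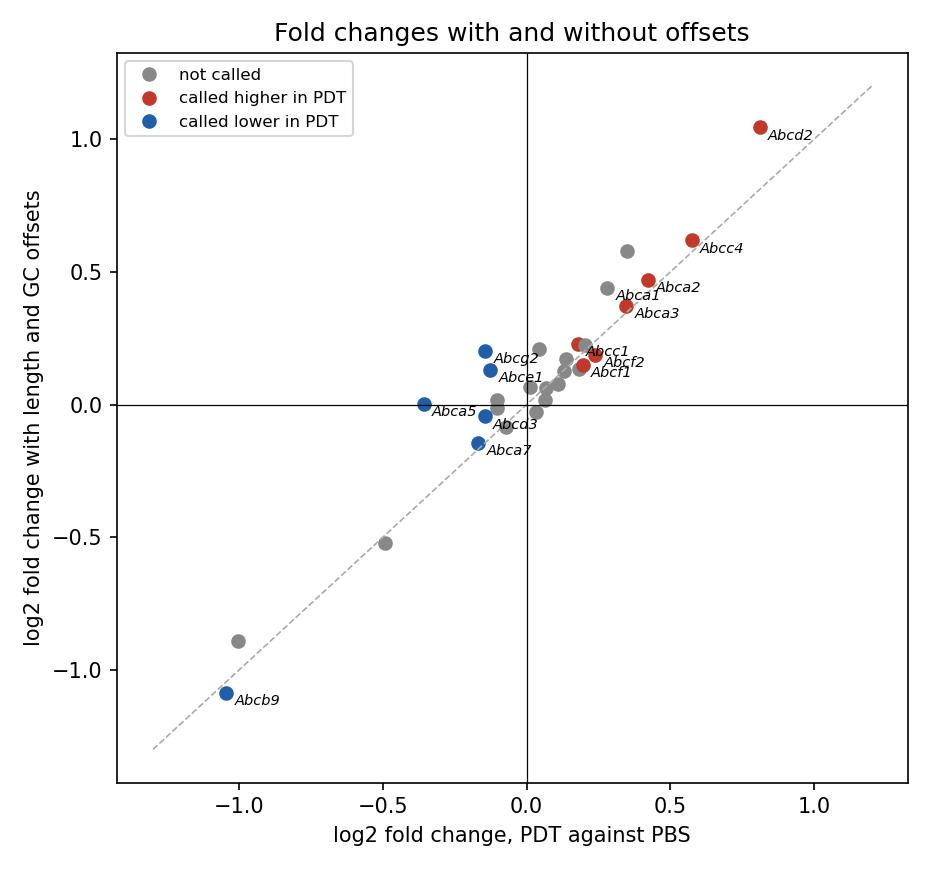
Log2 fold change, PDT against PBS, of 30 tested ABC genes without (horizontal axis) and with (vertical axis) offsets for transcript length and GC content; the dashed line marks equal values. Abcg2 and Abce1 cross from below 0 to above it (-0.14 to 0.20 and -0.13 to 0.13), Abca5 moves from -0.36 to 0.00, and Abcb9, Abcc4, Abca2 and Abca3 lie near the line.

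Abcb6, a porphyrin transporter described in mitochondria and endolysosomes, had 17.8, 18.65 and 17.0 CPM in PDT, against 14.2, 22.1 and 14.9 CPM in PBS. PBS replicate 2 was the highest of all 6 libraries and the other PBS libraries were below all of PDT. As counted, Abcb6 did not pass (0.07 ± 0.15, 95% interval -0.26 to 0.39, adjusted p = 0.765), and without PBS replicate 2 it did (adjusted p = 0.0157). In the GENCODE M21 annotation, 2932 exon bases of Abcb6 are also exons of the transcript Gm29253 on the same strand, which further shares 1832 bases with the neighbouring gene Atg9a. Gm29253 had 1308, 1255 and 1332 counts in PDT, against 1008, 82 and 1029 counts in PBS, so it was low in the library where Abcb6 was high. When the rows of Abcb6 and Gm29253 were summed, a choice made after seeing the data, the levels were 32.4, 31.1 and 30.3 CPM in PDT, against 26.0, 23.1 and 27.5 CPM in PBS. The summed row was higher in every PDT library (0.29 ± 0.07, adjusted p = 0.00811, and 0.00753 to 0.0346 with each library left out). With Atg9a added to the sum there was no call (0.04 ± 0.04, adjusted p = 0.417). Whether the reads of Abcb6 itself differ therefore cannot be told apart from how reads were divided over this locus.

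**Figure D4:**
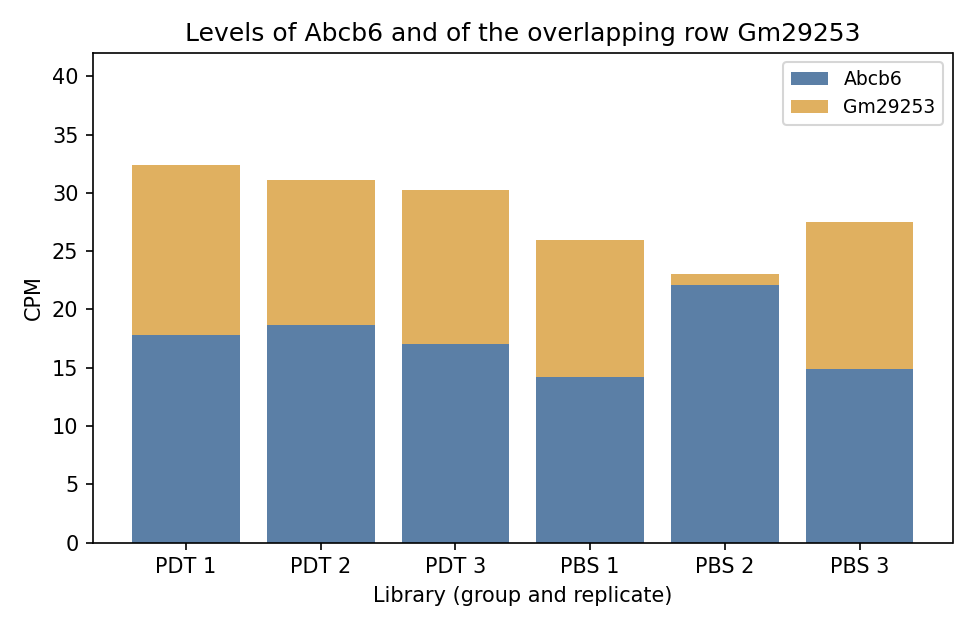
Level in CPM (vertical axis) of Abcb6 and of the overlapping row Gm29253, stacked, in each PDT and PBS library. In PBS replicate 2 nearly all of the stack is Abcb6, and the stacks of the 3 PDT libraries, 30.3 to 32.4 CPM, are above those of the 3 PBS libraries, 23.1 to 27.5 CPM.

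P-glycoprotein, the broad drug exporter, is encoded in the mouse by Abcb1a and Abcb1b. Abcb1b had 37.3, 35.8 and 38.9 CPM in PDT, against 42.9, 37.2 and 40.3 CPM in PBS, with overlapping groups (-0.10 ± 0.06, 95% interval -0.24 to 0.03, adjusted p = 0.221). Abcb1a was at 2.88 ± 0.22 CPM in PDT and 3.09 ± 0.53 CPM in PBS, and also did not pass (-0.10 ± 0.15, adjusted p = 0.646). The genes are close paralogs, the treatment of reads that match both is not given in the sources used here, and their sum did not pass either (-0.10 ± 0.06, adjusted p = 0.235).

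Other genes of porphyrin and heme handling were mostly higher, with 12 of 19 tested higher and 1 lower and a median of 0.21. Over all tested genes 18.7% were higher and 17.5% lower. Hmox1, which degrades heme, rose by 0.74 ± 0.04, the heme-binding membrane protein gene Pgrmc1 by 0.58 ± 0.05 and the lysosomal heme transporter gene Slc48a1 by 0.56 ± 0.04 (adjusted p of 1.47e-05 or less). Slc48a1 had 233 ± 10.3 CPM in PDT and 158 ± 5.69 CPM in PBS (SD, n = 3 each). Ppox, a late enzyme of heme synthesis, was the 1 lower gene and was named after its values were seen (-0.45 ± 0.10).

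The mitochondrial ABC genes are in subfamily B, and neither Abcb10 nor Abcb8 passed the test. Abcb10, an inner-membrane protein needed for heme synthesis, was at 44.7 ± 2.27 CPM in PDT and 46.95 ± 0.97 CPM in PBS (-0.07 ± 0.05, 95% interval -0.18 to 0.04, adjusted p = 0.3). Abcb8, another inner-membrane member, was at 0.18 ± 0.08 (adjusted p = 0.0968). It was called with library size alone and without PDT replicate 3. Iron-sulfur assembly genes had 10 of 16 tested members higher and 0 lower (median 0.22), and 6 higher without PDT replicate 1. With all libraries kept, 18.7% of all tested genes were higher and 17.5% lower. Ciao2b of the cytosolic pathway, the mitochondrial scaffold gene Iscu and Nubp1 rose by 0.43 ± 0.06, 0.36 ± 0.05 and 0.29 ± 0.04 (adjusted p of 0.000628 or less).

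The peptide transporter gene Abcb9 (TAPL), whose product carries peptides into lysosomes, showed the greatest fall among the called members at a low level. It had 42, 57 and 46 counts in PDT, against 99, 80 and 77 counts in PBS. In CPM these were 0.468, 0.567 and 0.457 in PDT, against 1.16, 0.978 and 0.944 in PBS, with no overlap. The level was 2.06-fold lower in PDT (-1.04 ± 0.22, adjusted p = 0.00448). Among ABC proteins with other symbols, the peptide transporter gene Tap2 rose by 0.36 ± 0.09 (adjusted p = 0.015, 0.0655 without PDT replicate 2), and Tap1 was at 0.08 ± 0.08 (adjusted p = 0.486).

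Lipid transporters of subfamily A moved in both directions. Abca2, an endolysosomal protein of sphingolipid and sterol traffic, had 37.8, 38.7 and 38.8 CPM in PDT, against 27.8, 30.7 and 27.6 CPM in PBS. All PDT libraries were above all PBS libraries, and the rise was 1.34-fold (0.42 ± 0.05, adjusted p = 0.000302). Abca3, known for loading surfactant lipids into lamellar bodies of the lung, rose 1.27-fold (0.35 ± 0.07, adjusted p = 0.00264), with 22.4 ± 0.88 CPM in PDT and 17.6 ± 1.08 CPM in PBS (SD, n = 3 each). Its exons share 914 bases with D330041H03Rik on the opposite strand, a row of 186 to 231 counts in PDT and 197 to 283 counts in PBS beside at least 1342 counts of Abca3. How reads were divided between these rows was not tested.

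Abca5, a late endosomal and lysosomal member, had 20.3, 20.5 and 22.7 CPM in PDT, against 26.7, 26.8 and 27.9 CPM in PBS. The groups were well apart (-0.36 ± 0.06, 1.28-fold lower, adjusted p = 0.00142), but with length and GC offsets the value was 0.00 ± 0.05 (adjusted p = 0.982). Its transcript has 8231 nt and 39.8% GC. Abca7, a phospholipid transporter linked to phagocytosis, had 37.8 ± 1.01 CPM in PDT and 42.4 ± 1.70 CPM in PBS (-0.17 ± 0.05, adjusted p = 0.0227). That call did not hold with library size alone (adjusted p = 0.0916), with no low-count filter (0.0624), or without PDT replicate 1 (0.056), PDT replicate 2 (0.0631), PBS replicate 1 (0.0964) or PBS replicate 3 (0.0552).

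Sterol efflux pumps were low in these cells. Abca1, which loads cholesterol and phospholipid onto apolipoprotein A-I, had 5.01, 4.35 and 5.37 CPM in PDT, against 4.465, 4.035 and 3.62 CPM in PBS. Its groups overlapped (0.28 ± 0.13, 95% interval 0.00 to 0.56, adjusted p = 0.111), and with offsets it was called (0.44 ± 0.11, adjusted p = 0.0134). Abcg1, which passes sterol to high-density lipoprotein, was at 1.34 ± 0.07 CPM in PDT and 1.16 ± 0.25 CPM in PBS (0.20 ± 0.20, 95% interval -0.24 to 0.64, adjusted p = 0.47). The related Abcg4 was at most 1.18 CPM in any library (-0.49 ± 0.22, adjusted p = 0.117). Abcg5 had 4 counts in 1 PBS library and Abcg8, its partner in the sterol exporter of liver and gut, had none. Abca8b, at 0.35 ± 0.13, had an adjusted p of 0.0581 and was called with library size alone, with offsets and without PDT replicate 1 (Abca8a, Abca8b and Abca9 are close relatives). In the list of sterol efflux and the oxysterol receptor LXR, 7 of 14 tested genes were higher and 1 lower (median 0.16). For all tested genes the shares were 18.7% higher and 17.5% lower. Without PDT replicate 2, 4 genes of the list were higher. Arl4c, a small GTPase gene, the late endosomal cholesterol exporter gene Npc1 and the phospholipid acyltransferase gene Lpcat3 rose by 0.88 ± 0.06, 0.62 ± 0.05 and 0.25 ± 0.04 (adjusted p of 0.00133 or less). The 1 lower gene, Mylip, which encodes a ligase that degrades the LDL receptor, was named after its values were seen (-0.31 ± 0.06).

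In subfamily D, Abcd2 and Abcd3 went different ways. Abcd2, which imports very long-chain and polyunsaturated fatty acyl-CoA, had 14.4, 15.3 and 14.8 CPM in PDT, against 8.16, 8.62 and 8.59 CPM in PBS. This was the highest fold change among tested ABC genes, 1.75-fold (0.81 ± 0.07, adjusted p = 1.98e-05), and 1.05 ± 0.08 with offsets.

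Abcd3 (PMP70), an abundant peroxisomal membrane protein, was at 67.3 ± 3.04 CPM in PDT and 74.5 ± 3.17 CPM in PBS, with groups that just did not overlap (-0.15 ± 0.05, adjusted p = 0.0387). The call was lost with library size alone (adjusted p = 0.141), without the low-count filter (0.107), with offsets (0.538) and without PDT replicate 1 (0.148), PBS replicate 2 (0.127) or PBS replicate 3 (0.111). Abcd4, which releases cobalamin from lysosomes and is not peroxisomal, was at 0.03 ± 0.05 (95% interval -0.08 to 0.15, adjusted p = 0.667). Peroxisomal import and beta-oxidation genes had 8 of 16 tested members higher and 0 lower (median 0.15), beside 18.7% and 17.5% of all tested genes. Hsd17b4, an enzyme of peroxisomal beta-oxidation, and catalase (Cat) rose by 0.30 ± 0.05 and 0.24 ± 0.04 (adjusted p of 0.00114 or less).

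**Figure D5:**
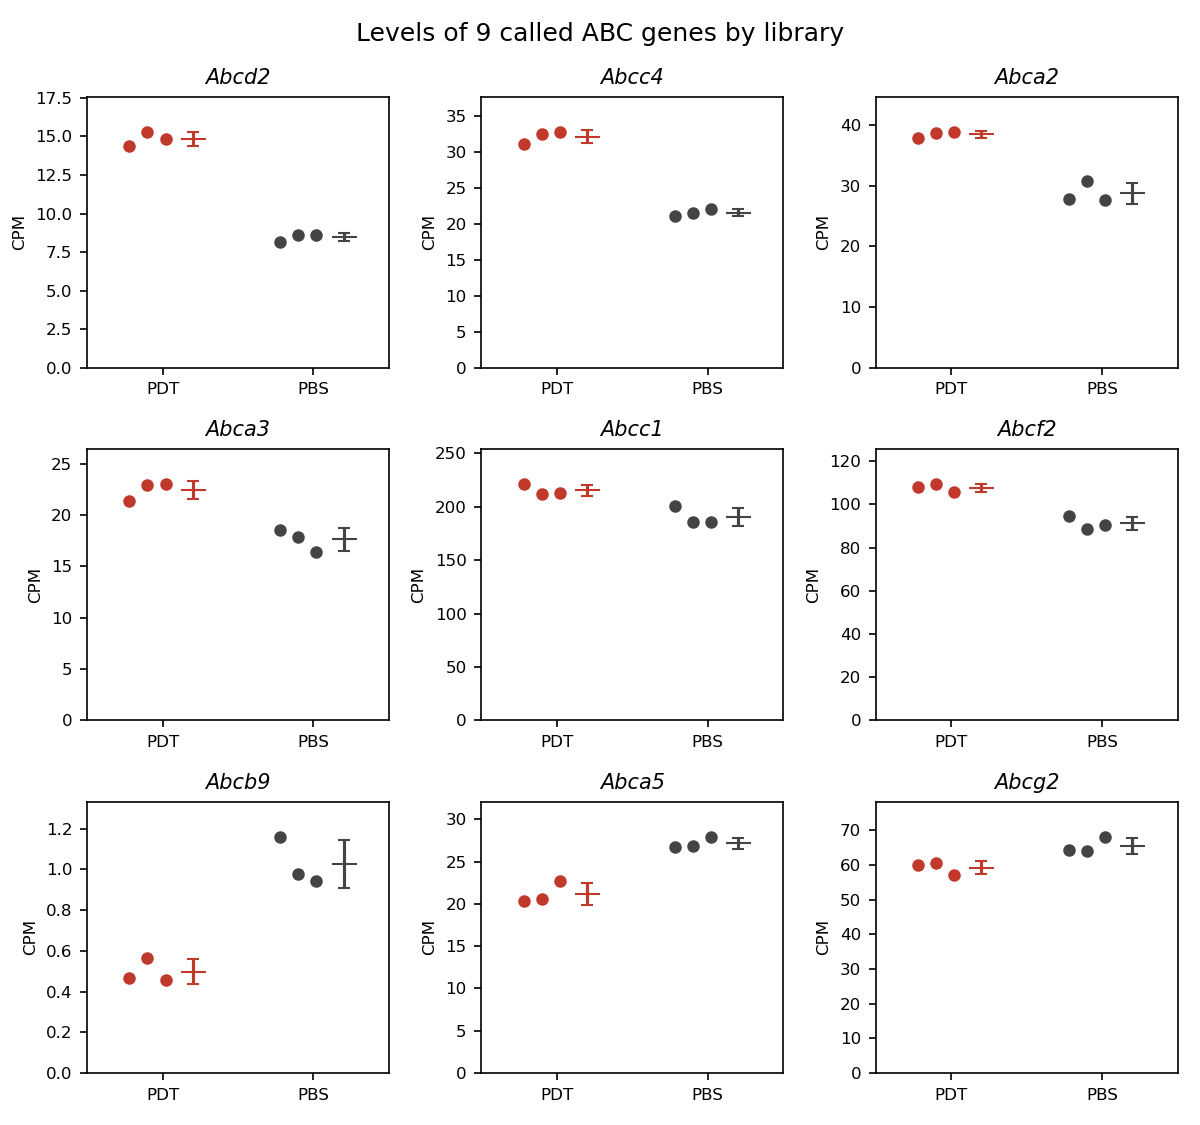
Level in CPM (vertical axes from 0) of 9 called ABC genes in each PDT and PBS library (points), with mean ± SD beside them (n = 3 each). In every panel the PDT and PBS points do not overlap; the widest gaps relative to level are in Abcd2 (14.8 against 8.46 CPM on average) and Abcb9 (0.497 against 1.03).

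The soluble ABC proteins act in translation. Abcf1, which binds the initiation factor eIF2, had 185, 182.5 and 178 CPM in PDT, against 156, 161 and 160 CPM in PBS. Abcf2 had 108, 109 and 106 CPM in PDT, against 94.6, 88.7 and 90.7 CPM in PBS. Both were higher in every PDT library, 1.145-fold (0.20 ± 0.03, adjusted p = 0.00194) and 1.18-fold (0.24 ± 0.04, adjusted p = 0.0012). Abcf3 also did not overlap between groups, at 57.8 ± 0.50 CPM in PDT and 53.5 ± 2.00 CPM in PBS, but did not pass (0.11 ± 0.04, adjusted p = 0.0659). It was called with library size alone (adjusted p = 0.0145).

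Abce1, which splits ribosomes for recycling after translation ends, had 199, 203.5 and 197 CPM in PDT, against 220.2, 210 and 224 CPM in PBS. It was lower in every PDT library (-0.13 ± 0.04, 1.09-fold lower, adjusted p = 0.0264). The call was lost with library size alone (adjusted p = 0.125), with no low-count filter (0.0805) and without PDT replicate 1 (0.0789), PBS replicate 1 (0.0834) or PBS replicate 3 (0.0822), and with offsets the value was positive (0.13 ± 0.06, adjusted p = 0.0992). A list of ribosome recycling and GCN2 partners, drawn up for subfamilies E and F together, had 4 of 11 tested genes lower and 0 higher (median 0.01). The share called over all tested genes was 36.1%, with 17.5% lower. Nemf, Eif2s2 and Ltn1 fell by 0.57 ± 0.10, 0.22 ± 0.04 and 0.21 ± 0.04, and Eif2ak4, which encodes the GCN2 kinase and was named after its values were seen, by 0.23 ± 0.05. With library size alone 2 genes of the list were higher, and with offsets 2 were lower and 2 higher, and Eif2s2 and Ltn1 were no longer called (-0.06 ± 0.05 and 0.03 ± 0.04).

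Abcg2 and Abce1 are the members whose promoter windows, on GRCm38.p6 from RefSeq, hold a full cAMP response element, TGACGTCA, which reads the same on both strands, so each is 1 match. They are shown because both genes were lower in the fit without offsets. With offsets the values were positive, 0.20 ± 0.07 for Abcg2 and 0.13 ± 0.06 for Abce1, and neither gene was called. A role of the element in these levels was not tested. The windows are chr6:58640296-58640595 on the plus strand, 1 of 3 annotated starts of Abcg2, and chr8:79711691-79711990 on the minus strand for Abce1. Capitals mark the element.
Abcg2: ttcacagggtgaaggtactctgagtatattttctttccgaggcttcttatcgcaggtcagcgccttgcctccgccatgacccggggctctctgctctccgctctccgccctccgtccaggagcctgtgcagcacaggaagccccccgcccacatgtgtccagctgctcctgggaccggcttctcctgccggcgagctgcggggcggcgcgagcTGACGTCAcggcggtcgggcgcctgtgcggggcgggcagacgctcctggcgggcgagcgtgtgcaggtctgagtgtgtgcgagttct
Abce1: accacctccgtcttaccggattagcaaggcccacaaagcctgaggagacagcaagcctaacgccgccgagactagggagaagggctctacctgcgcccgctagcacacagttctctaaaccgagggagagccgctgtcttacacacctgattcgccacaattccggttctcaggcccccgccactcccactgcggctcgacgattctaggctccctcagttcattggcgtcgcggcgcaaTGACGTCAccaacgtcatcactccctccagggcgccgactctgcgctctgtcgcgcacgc
Of all 32851 windows 1.79% hold the element, and 2 of the 45 windows of members (4.44%) do. The other windows of members have no such match, and of 14 called members 11 had a window in the table.

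The remaining 18 members did not pass the low-count filter. Of these, Abca6, Abca14, Abca15, Abca16, Abcb5 and Abcg8 had no count in any library, which allows up to 0.0298 to 0.0334 CPM per PDT library and 0.0352 to 0.0368 CPM per PBS library (3 counts, counting error only). The other 12 had at most 51 counts over all 6 libraries together. Abcc8 and Abcc9, the sulfonylurea receptor subunits of ATP-sensitive potassium channels, had 7 and 7 counts in PDT and 4 and 0 in PBS, and the channel pore genes Kcnj8 and Kcnj11 had none. Abcb4, the phosphatidylcholine exporter of liver, had 7, 1 and 4 counts in PDT, against 1, 0 and 0 in PBS. Tested but close to the floor, Abca4 of the retina and Abcb11, the bile salt export pump, were at most 0.755 and 0.221 CPM in any library and not called (adjusted p = 0.979 and 0.43). The 95% interval of the log2 fold change was -0.54 to 0.56 for Abca4 and -3.03 to 1.02 for Abcb11.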

How the data were processed

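Gene expression was measured in 6 libraries, 3 PDT and 3 PBS, grouped by the treatment in the labels. Per the labels' protocols, total RNA was depleted of ribosomal RNA and made into directional libraries. The deposited table holds whole-number counts per gene symbol, not normalised. Per the submitters' processing notes, the tools were STAR 2.7.11b and cutadapt 4.6 with build GRCm39. The sources used here do not give the counter, annotation, use of strand or handling of shared reads, or whether values are assigned reads or rounded estimates.

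Counts were filtered with filterByExpr, scaled by TMM and tested in edgeR 4.0.16 (R 4.3.3; quasi-likelihood F test) on group alone, with Benjamini-Hochberg adjustment over all 17635 genes and a threshold of 0.05. SE is the size of the log2 fold change over the square root of F, and intervals are at 95%. Common biological coefficient of variation was 10%. Transcript lengths are of the longest protein-coding GENCODE M21 transcript, and offsets were smoothed with mgcv 1.9.3. M21 and the RefSeq windows are on GRCm38, so they were used for gene properties and printed windows only. The rule for named members took those called and a fixed set of 19; from each pathway list up to 3 called genes with the lowest adjusted p were named. Other members, Tap1, Nfe2l2, Keap1, the single lower genes of lists and genes that share exons with members were named after their values were seen. Some genes that this rule takes are not reported here. Members, lists and rules were chosen with earlier results of these data known.

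The fit was tested on simulated data with known small changes, and most of these were not called. A gene that did not pass may therefore still differ. Counts of every pair of libraries differed by more than sampling noise (lowest chi-square over degrees of freedom 11.2). Other settings tried were DESeq2 1.42.0, limma-voom (limma 3.58.1), scaling by RLE or by library size only, no filter, a stricter filter (10 counts in 3 samples, mean of 1 CPM), offsets, a replicate block and leaving out each library.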

Additional observations from a re-analysis of the deposited data

How the results depend on the processing

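Over 14 other settings, the 7 members called higher stayed called in the same direction. The count of members called higher was 7 to 11, with 11 under length and GC offsets. The count called lower, 7, was 2 with library size only, 3 without the low-count filter and 3 with offsets. With each library left out in turn it was 2 to 7, lowest without PDT replicate 1, and 7 to 8 members were called higher. The median log2 fold change of the tested members, 0.05, was 0.10 with library size only, 0.13 with offsets and 0.0165 to 0.1234 with each library left out.

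With offsets the log2 fold change turned its sign for Abca5 (0.002), Abcb1a (0.0154), Abcd4 (-0.0288), Abce1 (0.13), Abcg2 (0.20) and Ltn1 (0.0342). With 1 library left out it did so for Abcb1a (range -0.2309 to 0.0112), Abcb6 (-0.0508 to 0.2956) and Abcd4 (-0.0027 to 0.0557). The cause was not tested.

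Replicate numbers gave no sign of pairing: deviations of libraries with numbers 1, 2 and 3 correlated at -0.012, 0.014 and 0.005. Over all pairs of a PDT and a PBS library the correlations ran from -0.027 to 0.024. They were taken over all tested genes, low-count ones among them, so a weak pairing could be missed. With the replicate block 6067 genes were called in place of 6372, and 8 members were higher and 5 lower; Abcb8 was then called, and Abcg2 was not (adjusted p = 0.0528 in edgeR). The stricter low-count filter left 28 members and did not test Abcb9. Depth limits the members near or below 1 CPM.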
